A study of Beta vulgaris subsp. vulgaris with 30 samples.

Results

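Freezing after ethanol pretreatment was described by setting 6 RNA-seq libraries against 6 others, all of sugar beet shoots. The first came from plants frozen after an ethanol pretreatment, the others from plants given the ethanol pretreatment only. These 12 of the 30 libraries of the series were chosen by their titles, and all 21587 genes of the count table were considered. The other 18 libraries are 6 each taken before pretreatment, after water, and after water and freezing. The series description gives soil-grown beet seedlings aged 7 days, pots with their base in 80 mM ethanol for 3 days, and then freezing between -2.1 and -3.5 °C for a night. The control of this comparison therefore carries the same ethanol pretreatment as the frozen group, and the water arm carries none. The protocol text of the single samples names another plant, Arabidopsis, at 14 days, with 20 mM ethanol over 6 days and freezing at -4.0 °C. Group names carry 3 days and, for the frozen groups, 2 h, without saying from when the 2 h run. Since the counted genes carry beet identifiers on assembly EL10.2, the description for beet was taken. The sources used here give neither cultivar nor hour of sampling, and an effect of the hour cannot be told apart from one of freezing. RNA, 200 ng a sample, was made into libraries by Lasy-Seq, a pooled protocol that starts from poly(A) tails.

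Plants that meet low temperature are known to change the level of many transcripts within hours. In well studied species, transcription factors of the CBF family switch on genes for protective proteins, sugar metabolism and membrane lipids, while genes for photosynthesis and growth are often reduced. Ice that forms between cells draws water out of them, so freezing also carries a water deficit, and the hormone abscisic acid acts through ABRE-binding factors in that branch. Ethanol given at the roots is known to improve tolerance of several stresses in crop plants. The count table pairs its beet genes with no product names, so most genes below are given by identifier, RefSeq locus and position. For the same reason shoot marker genes were not looked up.

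Total counts ran from 3379082 to 15804988 (median 9539682) in the ethanol libraries and from 7958897 to 17868082 (median 9232720) in the frozen ethanol libraries. Ethanol replicate 4, the shallowest, stood apart from the other 5 of its group. It held reads for 11985 genes, and 18.3% of the genes tested were at 0 in it, against 4.29 to 8.19% in the other 5. Its median Spearman correlation with its own group was 0.871 over 5406 genes that averaged 10 CPM or more, where the others had 0.906 to 0.914. CPM are read counts scaled to a common library size with TMM factors. On the leading component of the 12 libraries, with 22.1% of the variance, it lay at -156.9, the other ethanol libraries at -20.38 to -8.51, and the frozen ones at 31.39 to 46.76. It was the lowest of the 6 ethanol libraries in 30.2% of the genes called below. Calls are therefore given with it and without it.

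Freezing after ethanol raised 817 genes and lowered 923 of the 14128 tested, by edgeR's quasi-likelihood test at an adjusted p under 0.05. These are 5.78% and 6.53% of the genes tested, or 12.3% in either direction, and 3214 genes had an unadjusted p under 0.05. The median log2 change of the genes that rose was 1.07, with quartiles of 0.74 and 1.58, and that of the genes that fell was -0.89, with quartiles of -1.15 and -0.68. A change of 2-fold or more was seen in 450 rises (3.19%) and 334 falls (2.36%). Without ethanol replicate 4 these were 399 and 406, so the excess of large rises depended on that library. A log2 change of at least 3 was seen in 50 rises and 13 falls. Over all genes tested the median log2 change was 0.09, and 0.06 with relative log expression scaling, so changes are close to those relative to the middle gene. Whether the replicates were grown apart is not stated in the labels, and p-values cover only the spread between them. In shoots, fewer cells of a type and less RNA per cell cannot be told apart.

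Without ethanol replicate 4, 684 genes rose (4.73%) and 974 fell (6.73%) of 14462 tested by the same test. Of the genes that rose, 627 were called both with and without this library and 190 only with it, and 8.33% of the 684 were called only without it. Of those that fell, 870 were called in both and 53 only with it, and 10.7% of the 974 only without it. Fewer rises and more falls were thus called when the shallow library was left out, with median log2 changes of 1.12 and -0.93. All 6 frozen libraries lay above all 6 ethanol libraries in 489 genes (3.46% of those tested), of which 416 were called. They lay below in 594 genes (4.2%), of which 555 were called. The median SD of log2 CPM over the 5406 genes was 0.341 after ethanol, 0.294 without replicate 4, and 0.33 after ethanol and freezing.

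The genes described next are the 10 with the greatest log2 rise and the 10 with the greatest log2 fall among called genes that reached a mean of 10 CPM in the higher group. They also had to be called without ethanol replicate 4, to have frozen and unfrozen libraries that did not overlap, and to lie on a RefSeq gene. This left 290 genes that rose and 504 that fell to choose from. The separation of the groups was a condition of choice and is not a result about these genes.

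Bevul.6G187100 (LOC125498315, chromosome 6, 63156660 to 63157238, plus strand) had the greatest rise. Its 6 ethanol libraries ran from 0 through a median of 0.311 to 3.41 CPM, and its frozen ethanol libraries from 5.85 through 33.1 to 61.9 CPM. It was close to silent in 5 of the unfrozen libraries and reached its unfrozen maximum in replicate 3 alone. The log2 change was 5.26 ± 0.84 (SE; n = 6 each; edgeR adjusted p = 1.49e-05), and 6.67 without ethanol replicate 3. Bevul.2G074100 (LOC104906177, chromosome 2, 15773988 to 15780625, plus strand) ran from 0.214 through 0.572 to 2.35 CPM after ethanol and from 6.49 through 16.2 to 37.1 CPM after freezing, with a log2 change of 4.58 ± 0.72 (edgeR adjusted p = 1.29e-05). Both genes thus went from the edge of detection to a clear level.

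The next 4 genes also had a low unfrozen level. Bevul.2G014000 (LOC104887760, chromosome 2, 1799120 to 1803800) ran from 0 to 4.92 CPM after ethanol and from 6.19 to 68.8 CPM after freezing, a log2 change of 3.49 ± 0.73. Bevul.3G055600 (LOC104888421, chromosome 3, 6730065 to 6732325) ran from 0.973 to 6.74 CPM and from 16.5 to 70.5 CPM, a log2 change of 3.09 ± 0.47. Bevul.3G209600 (LOC104889490, chromosome 3, 53379976 to 53380506) ran from 1.45 to 2.46 CPM and from 8.41 to 19 CPM, a log2 change of 3.05 ± 0.43. Frozen libraries differed among themselves by more than 4-fold in the first and the second of these and less in the last. Bevul.8G137400 (LOC104883438, chromosome 8, 48759296 to 48762968) ran from 0.293 to 2.25 CPM and from 3.77 to 17.6 CPM, a log2 change of 3.04 ± 0.64. The adjusted p values of these 4 genes by edgeR were 0.000663, 6.49e-06, 2.32e-06 and 0.000805.

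Bevul.9G090900 (LOC104903549, chromosome 9, 30628972 to 30630792, minus strand) was the only one of the 10 above 100 CPM in the ethanol libraries. It ran from 108.3 through 169 to 229.6 CPM after ethanol and from 576 through 1203 to 1960.1 CPM after freezing, a log2 change of 2.78 ± 0.24 (edgeR adjusted p = 1.37e-09). Before pretreatment it stood at 45.3 ± 16.1 CPM (SD, n = 6), so the unfrozen level after ethanol was itself above the starting level. After water it stood at 154.5 ± 45.2 CPM, so the level was above the starting one without ethanol too. Bevul.7G007000 (LOC104898174, chromosome 7, 843753 to 845242) ran from 7.12 through 9.9 to 24.6 CPM and from 42.3 through 97.8 to 156 CPM, a log2 change of 3.03 ± 0.35 (edgeR adjusted p = 1.04e-07). Bevul.8G126900 (LOC104884384, chromosome 8, 45923132 to 45932547) ran from 0.722 to 13.1 CPM and from 16.3 to 94.8 CPM, a log2 change of 2.76 ± 0.48 (edgeR adjusted p = 6.32e-05).

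Bevul.7G178000 (LOC104899837, chromosome 7, 54646866 to 54647699, plus strand) differed from the other 9 in the water arm. Its ethanol libraries lay close together, from 6.89 through 10.1 to 11.9 CPM, and its frozen ethanol libraries were wide apart, from 14.1 through 47.7 to 147 CPM. The log2 change was 2.65 ± 0.40 (edgeR adjusted p = 7.69e-06). After water it stood at 14.4 ± 7.39 CPM, and at 24.4 ± 12.9 CPM after water and freezing, a log2 change of 0.75 ± 0.38 (adjusted p = 0.252). The difference between the responses had an edgeR p of 0.00132 before adjustment and 1 after it, so no difference was shown across all genes.

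Among the 10 greatest falls, Bevul.7G090100 (LOC104899055, chromosome 7, 25631460 to 25631789, minus strand) came first. It ran from 2.92 through 19.4 to 27.6 CPM after ethanol and from 0 through 1.23 to 1.73 CPM after freezing, a log2 change of -4.17 ± 0.68 (edgeR adjusted p = 2.01e-05). Bevul.3G053900 (LOC104888401, chromosome 3, 6497189 to 6505682) ran from 14.9 through 48.2 to 76.5 CPM and from 0.204 through 3 to 5.47 CPM, a log2 change of -4.02 ± 0.52 (edgeR adjusted p = 4.57e-07). Both were left at a low level, with 69 and 206 reads over the 6 frozen libraries. Bevul.7G135800 (LOC104899597, chromosome 7, 45431436 to 45432443) ran from 13.4 to 25.3 CPM and from 1.05 to 3.8 CPM, a log2 change of -3.01 ± 0.35 (edgeR adjusted p = 8.25e-08). Before pretreatment this gene stood at 6.34 ± 3.14 CPM, so the level that fell was one above the starting level. After water it stood at 22.4 ± 3.55 CPM, also above the starting level.

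Of the falling genes, 3 were above 50 CPM in every ethanol library and kept a clear level after it. Bevul.9G081600 (LOC104903439, chromosome 9, 27054957 to 27056887, minus strand) had ethanol libraries from 1054 through 1174 to 1310.2 CPM and frozen ones from 141 through 260.1 to 434 CPM, a log2 change of -2.20 ± 0.22 (edgeR adjusted p = 1.14e-08). Bevul.9G180900 (LOC104904451, chromosome 9, 49413333 to 49413955) ran from 348 to 589 CPM and from 59 to 130.3 CPM, a log2 change of -2.15 ± 0.28 (edgeR adjusted p = 6.39e-07). Bevul.7G152200 (LOC104907276, chromosome 7, 49612746 to 49613549) ran from 64.5 to 92.7 CPM and from 14.5 to 19.3 CPM, with the smallest SE of the 20 genes, a log2 change of -2.09 ± 0.18. In these 3 the lowest ethanol library was more than 2-fold above the highest frozen one.

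The remaining 4 falling genes held between 11.1 and 22.8 CPM on average after ethanol. Bevul.8G112900 (LOC104901470, chromosome 8) stood at 18.4 ± 8.04 and 2.6 ± 1.42 CPM, Bevul.8G026000 (LOC104900698, chromosome 8) at 22.8 ± 7.67 and 4.34 ± 1.47 CPM, and Bevul.3G124700 (LOC104906938, chromosome 3) at 11.1 ± 3.76 and 2.4 ± 1.83 CPM. Their log2 changes were -2.83 ± 0.44, -2.39 ± 0.34 and -2.19 ± 0.61. Bevul.2G008700 (LOC104887797, chromosome 2, 1197984 to 1198932) averaged 19.7 ± 6.07 CPM after ethanol and 2.91 ± 1.81 CPM after freezing, a log2 change of -2.77 ± 0.53 (edgeR adjusted p = 0.000204). After water it stood at 41.3 ± 20.4 CPM, and at 1.06 ± 1.14 CPM after water and freezing, a log2 change of -5.35 ± 0.61. The difference between the responses had an edgeR p of 0.00179 before adjustment and 1 after it. All 20 genes kept their calls under each of the 17 other settings tried. The fit without ethanol replicate 4 is among these settings, and a call in it was a condition of choice. Of the 20, 18 were also called after water, beside 11.1% of all genes tested, the others being Bevul.7G178000 and Bevul.3G124700. The 20 were chosen for level, size of change and separation, so the share over all genes is not a matched reference.

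**Figure D1:**
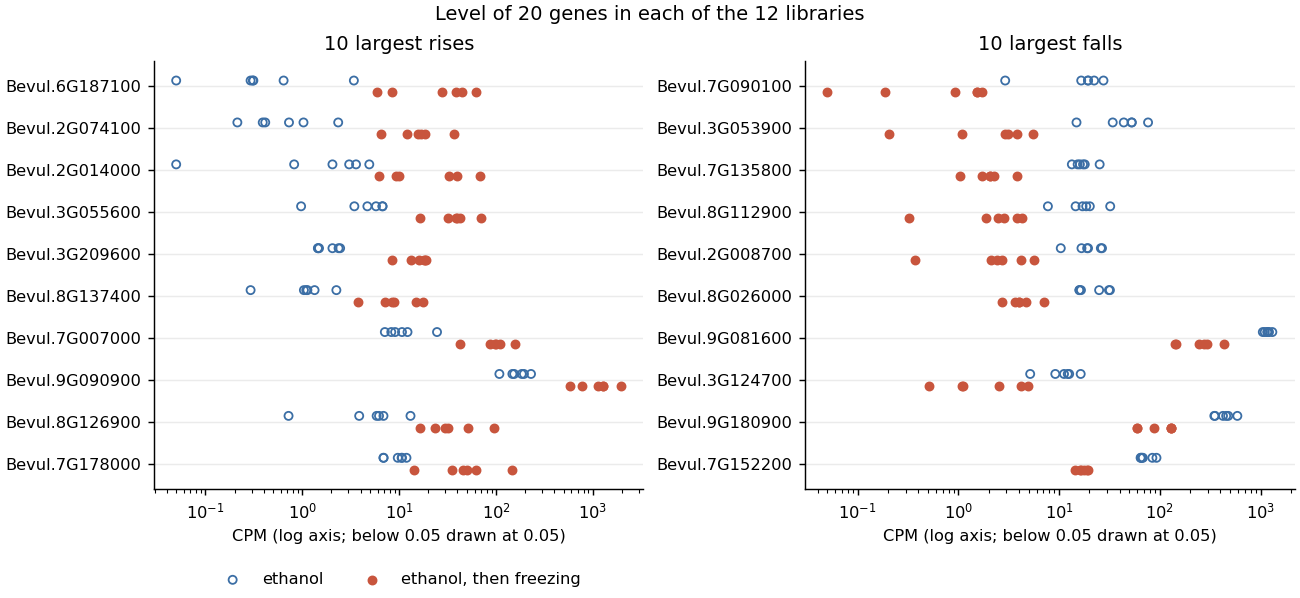
CPM (log axis) of the 10 genes with the greatest rises (left) and the 10 with the greatest falls (right) in the 6 ethanol libraries (open circles) and the 6 frozen ethanol libraries (filled circles), 1 point a library, with values below 0.05 drawn at 0.05. The groups do not overlap in any of the 20 because this was a condition of choice, and most rising genes start under 10 CPM, whereas Bevul.9G090900 starts above 100 CPM.

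By absolute change rather than fold, the genes that moved most were the abundant ones. These are read counts, and whether they rank the genes by transcript number was not tested. Bevul.2G213400 (LOC104906081, chromosome 2, 52770291 to 52771961) fell from between 42088 and 54992 CPM to between 11201 and 23799 CPM, with medians of 46137 and 13405 CPM and a log2 change of -1.58 ± 0.19 (edgeR adjusted p = 1.76e-07). No other gene that met these conditions moved so many CPM. Bevul.8G137700 (LOC104883441, chromosome 8) fell from 11529.5 ± 1068 to 5761 ± 1126 CPM, Bevul.2G228400 (LOC104904499, chromosome 2) from 12374 ± 1523 to 6921 ± 1274 CPM, and Bevul.7G047800 (LOC104908845, chromosome 7) from 7294 ± 1281 to 3944 ± 734 CPM. Their edgeR adjusted p values were 4.2e-06, 0.000137 and 3.51e-06.

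In the other direction, Bevul.2G064600 (LOC104887317, chromosome 2, 12853129 to 12855795) rose from between 7497 and 11826 CPM to between 12596 and 17048 CPM, a log2 change of 0.66 ± 0.12 (edgeR adjusted p = 0.000189). Bevul.2G064400 (LOC104887319, chromosome 2, 12810940 to 12812679), which lies close by on the same strand, rose from between 4333 and 5561 CPM to between 7405 and 11104 CPM, a log2 change of 0.86 ± 0.12 (edgeR adjusted p = 2.81e-06). Both therefore gained many reads at less than a 2-fold change. Bevul.4G172700 (LOC104890646, chromosome 4) rose from 2052 ± 227 to 4358 ± 931 CPM, or by a log2 change of 1.09 ± 0.18. Bevul.8G063800 (LOC130589725, chromosome 8), annotated as a long non-coding RNA, rose from 1716 ± 331 to 3718 ± 841 CPM, or by a log2 change of 1.12 ± 0.15.

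Among genes of 10 CPM or more before any treatment, falls made up more of the calls the higher the level. Genes were classed by their mean CPM in the 6 libraries taken before pretreatment, which enter neither side of the comparison. Of 164 genes with 1000 CPM or more, 94 fell (57.3%) and 12 rose (7.32%), and their median log2 change was -0.54. Of 848 genes with 100 to 1000 CPM, 289 fell (34.1%) and 13.8% rose, with a median of -0.17. Between 10 and 100 CPM the counts were near each other, 476 that fell and 451 that rose of 4310, with a median of 0.02. All 5015 genes with 10 or more unscaled CPM before pretreatment passed the low-count filter. From 1 to 10 CPM 216 rose and 60 fell of 7043, and under 1 CPM 21 rose and 4 fell of 1763. A gene in these low classes could pass the filter through the frozen libraries alone, so nothing is read from its direction there. Without ethanol replicate 4 the class of 1000 CPM or more had 96 falls, 10 rises and a median of -0.58, and with relative log expression scaling 96, 10 and -0.57. After water, with its own 12 libraries, the same class had 97 falls, 14 rises and a median of -0.51.

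**Figure D2:**
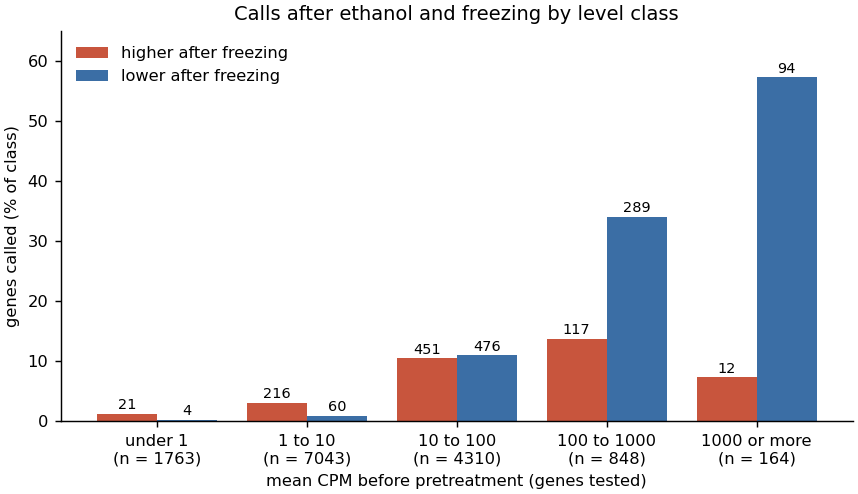
Share of the genes of a level class (vertical axis, %) called higher or lower after ethanol and freezing by edgeR, with the number of genes above each bar and the classes by mean CPM before pretreatment along the horizontal axis. Falls make up 57.3% of the 164 genes in the highest class and 11% of the 4310 genes with 10 to 100 CPM.

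In terms of the library as a whole, the 94 abundant genes that fell held 30.8 ± 0.644% of the counts after ethanol and 20.1 ± 1.7% after ethanol and freezing (SD, n = 6). These genes were chosen in the same comparison, so the shift is a description. All 164 genes of that class held 59.8 ± 1.11% of the counts after ethanol, between 58.1 and 61.1%, and 55.7 ± 2.22% after freezing, between 53.6 and 58.7%, with ranges that met. Before pretreatment they held 63.4 ± 1.49%.

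The share of counts in genes called after water is a measure chosen less directly by the ethanol libraries. Those calls compare water libraries with frozen water libraries. The fit of all 30 libraries shared its filter, scaling and spread, so the ethanol libraries had some part in the choice. The 861 genes that freezing lowered after water (6.09% of those tested) held between 45.2 and 47.7% of the counts in the ethanol libraries, with a median of 46.8%, and between 28.3 and 34.2% in the frozen ethanol libraries, with a median of 30.9%. The 709 genes that freezing raised after water (5.02%) held between 7.64 and 8.71% in the ethanol libraries and between 14 and 18.6% in the frozen ethanol libraries. In neither list did a frozen ethanol library overlap the ethanol ones. Ethanol replicate 4 lay inside the range of its group in both. The frozen water libraries, which helped choose the lists, held 30.9 ± 3.64% and 16.2 ± 2.15%, beside 30.8 ± 2.14% and 16.2 ± 1.57% in the frozen ethanol libraries. Single genes showed the same. The frozen ethanol libraries lay wholly above the ethanol ones in 301 of the 709 genes (42.5%), against 3.46% of all genes tested, and wholly below in 479 of the 861 (55.6%), against 4.2%.

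**Figure D3:**
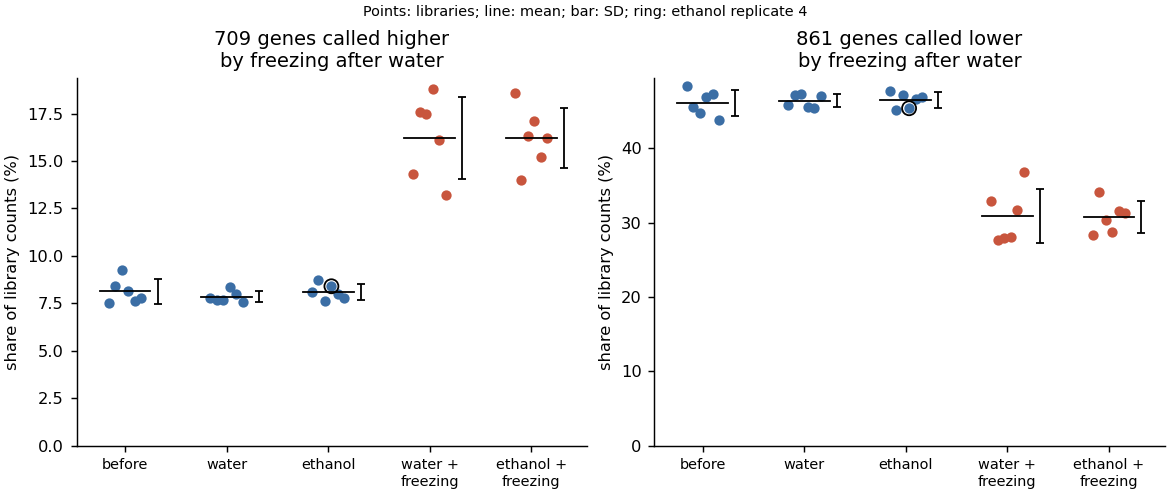
Share of a library's counts (%) in the 709 genes called higher (left) and the 861 called lower (right) by freezing after water, 1 point a library, with the mean as a line and the SD as a bar beside it, for all 5 groups of 6. The unfrozen groups sit near 8% and 46%, the frozen ethanol libraries between 14 and 18.6% and between 28.3 and 34.2%, and ethanol replicate 4 (ringed) sits among its group.

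The freezing responses after ethanol and after water come from separate libraries. Of the 817 genes that rose after ethanol, 799 had a positive log2 change after water, and of the 923 that fell, 912 had a negative one. Their median log2 changes after water were 0.80 and -0.75. The genes called after water in turn had medians of 1.02 and -0.87 after water and 0.83 and -0.83 after ethanol, so in each case the arm that chose the genes had the larger median. There were 359 genes that rose after ethanol and were not called after water, with medians of 1.07 after ethanol and 0.51 after water. There were 277 such genes that fell, with medians of -0.84 and -0.44. Of these, 160 that rose and 140 that fell had an unadjusted p under 0.05 after water by edgeR. Genes called after ethanol only are, by that choice, likelier to have a low p for the difference. Counts of such p values among them therefore describe the choice and do not test it. In the test of the difference between the responses, 52 that rose and 42 that fell had an unadjusted p under 0.05. That test called 0 of 14128 genes (0%) by edgeR, with a lowest adjusted p of 0.925 and 406 genes at an unadjusted p under 0.05, and DESeq2 also called 0, with 479. The median SE of the difference was 0.614 on the log2 scale, so for a typical gene a small difference between the responses was not detectable. Large ones could be missed too. Differences of 2.58 ± 0.76 in Bevul.2G008700 and 1.90 ± 0.54 in Bevul.7G178000 were not called. The lack of calls therefore does not show that the responses were alike.

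**Figure D4:**
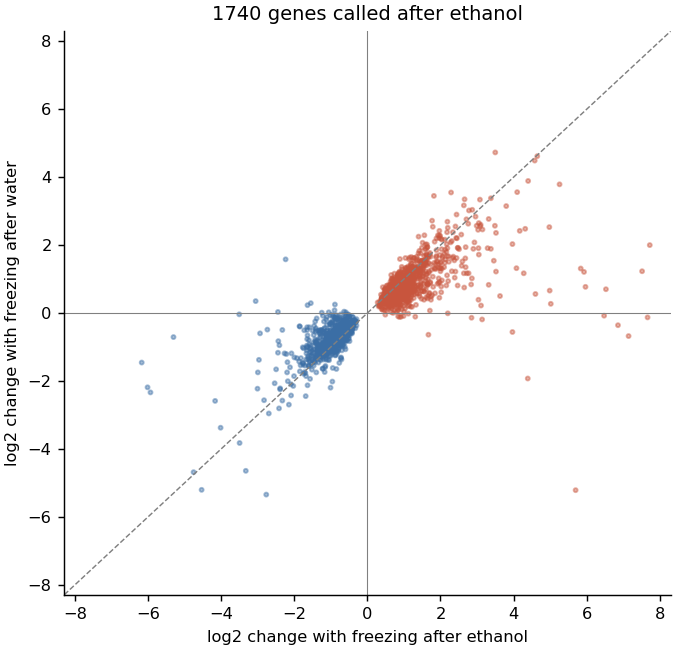
Log2 change with freezing after ethanol (horizontal axis) and after water (vertical axis) of the 1740 genes called after ethanol, 817 higher (red) and 923 lower (blue), 1 point a gene, with the dashed line where both are equal. Most points lie in the quadrants of equal sign, and 799 and 912 of the genes do.

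Few of the genes tested had no read on one side and a read in every library of the other. Genes with no read on one side and reads in only some libraries of the other were not counted. Bevul.3G033500 (LOC104888200, chromosome 3, 3880416 to 3881858), Bevul.3G127800 (LOC104883932, chromosome 3, 21126717 to 21130250) and Bevul.6G243800 (LOC104897997, chromosome 6, 71784988 to 71786600) had 0 reads in the 6 ethanol libraries and reads in each of the 6 frozen ones, with means of 1.73, 2.23 and 2.48 CPM. Against a floor of 3 reads over the ethanol group, which is 0.0518 CPM and covers counting error only, they were at least 33.3-fold, 43.1-fold and 47.9-fold higher. Their edgeR adjusted p values were 0.00299, 0.00282 and 0.00745. The other unfrozen groups held some reads. Bevul.3G033500 had 6 reads before pretreatment and 63 after water. Bevul.3G127800 had 5 and 10, with a median of 0 CPM in both groups, and Bevul.6G243800 had 27 and 38. After water and freezing the 3 genes had 36, 26 and 39 reads in this order, which the next values keep. Their log2 changes after water were -0.68 ± 1.20, 1.23 ± 1.29 and -0.13 ± 1.39, none of which passed the test. The difference between the responses had unadjusted p values of 0.000463, 0.00414 and 0.0022 and adjusted ones of 0.995, 1 and 1 by edgeR. In the reverse direction, 0 genes had reads in all 6 ethanol libraries and none in the 6 frozen ones. These 3 genes were chosen for their values, so the folds and p values after ethanol and of the difference describe that choice and do not test it. Before pretreatment they averaged 0.139, 0.107 and 0.533 CPM. In that class, under 1 CPM, a gene could pass the low-count filter through the frozen libraries alone.

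Some called genes were neighbours, and whether there were more of these than so many calls would give by themselves was not tested. The runs described next were chosen for their values. A pair of runs of 3 joins up on chromosome 4 between 61599549 and 61632990, where 6 of 7 neighbouring genes rose over 33.4 kb. Bevul.4G218500 (LOC104890134) rose most, from between 51 and 85 CPM to between 266 and 524 CPM, a log2 change of 2.34 ± 0.31 (edgeR adjusted p = 8.72e-07). Bevul.4G218400 (LOC104890135) rose from 124.4 ± 20.6 to 383 ± 79.4 CPM and Bevul.4G218700 (LOC104890132) from 12.9 ± 3.51 to 40.3 ± 16 CPM, with log2 changes of 1.62 ± 0.27 and 1.64 ± 0.40. The change was smaller towards both ends of the stretch.

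At one end Bevul.4G218300 (LOC104890136) rose from 17.3 ± 3.6 to 33.6 ± 7.04 CPM, or by a log2 change of 0.96 ± 0.19. At the other, Bevul.4G218800 (LOC104890131) rose from 427 ± 62.8 to 873 ± 126.4 CPM and Bevul.4G218900 (LOC104890130) from 144 ± 18.2 to 206 ± 37.5 CPM, with log2 changes of 1.03 ± 0.13 and 0.51 ± 0.12. In all 6 the frozen libraries lay above the ethanol ones. The gene between them, Bevul.4G218600 (LOC104890133), stood at 6.55 ± 5.7 and 17.9 ± 12.6 CPM and did not pass, with an edgeR adjusted p of 0.169. The neighbours just outside, Bevul.4G218200 and Bevul.4G219000, had log2 changes of 0.28 ± 0.35 and 0.65 ± 0.70. The genes lie on both strands. Bevul.4G218400 and Bevul.4G218900 span 2530 bp each, and whether they are near copies that share reads was not tested.

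**Figure D5:**
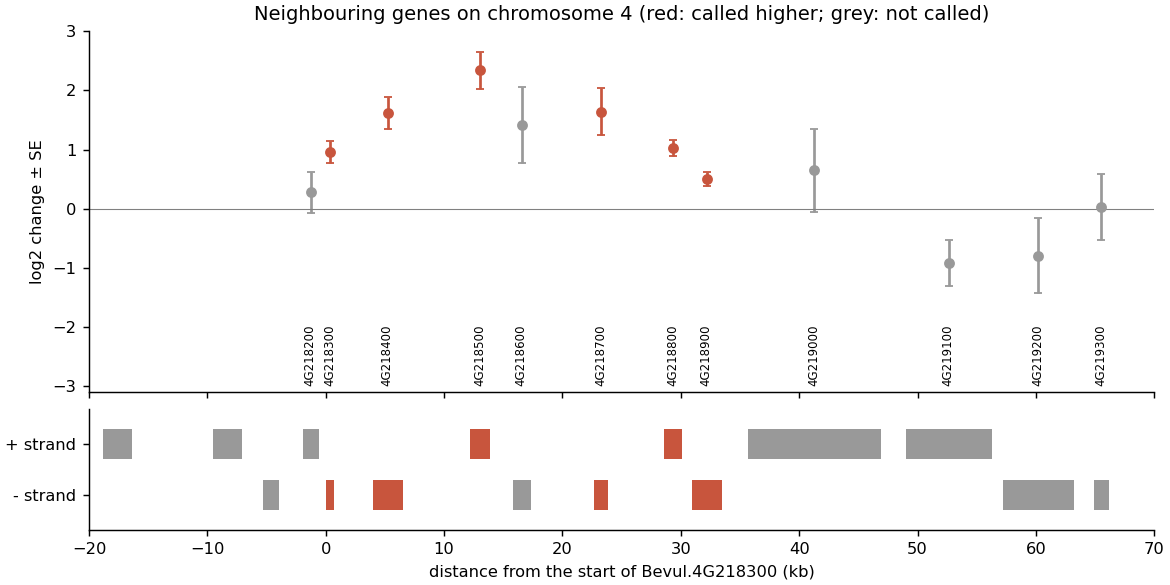
Log2 change ± SE with freezing after ethanol (upper panel) and position and strand (lower panel) of neighbouring genes on chromosome 4, against the distance in kb from the start of Bevul.4G218300; red genes were called higher and grey ones were not called or not tested. The changes rise to 2.34 at Bevul.4G218500 and fall to 0.51 at Bevul.4G218900.

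On chromosome 7, Bevul.7G007000 described above lies between 2 further genes that rose. Bevul.7G006900 (LOC125499641) ran from 0.939 to 13.8 CPM after ethanol and from 3.65 to 51.9 CPM after freezing, with overlapping ranges and a log2 change of 3.08 ± 0.88 (edgeR adjusted p = 0.0147), and 3.73 without ethanol replicate 4. Bevul.7G007100 (LOC104898175) rose from 1049.7 ± 322 to 1698 ± 221 CPM, or by a log2 change of 0.69 ± 0.20 (edgeR adjusted p = 0.0176), a call that was lost without ethanol replicate 5, at 0.059. A run of 4 genes that fell lies on chromosome 9 between 41689136 and 41696047. Bevul.9G126500, Bevul.9G126600 and Bevul.9G126700 fell by 1.11, 0.96 and 1.34 on the log2 scale, from 53.9 ± 5.51 to 25 ± 12.6, from 50.6 ± 5.8 to 25.9 ± 4.38 and from 29.4 ± 5.2 to 11.5 ± 4.66 CPM. Bevul.9G126400 fell from 17.7 ± 5.23 to 9.04 ± 3.61 CPM (edgeR adjusted p = 0.0353). That call was lost without ethanol replicates 1, 2, 3 or 5 or frozen ethanol replicates 1, 2, 3, 4 or 6, with adjusted p values of 0.0543 to 0.0934. Both Bevul.9G126400 and Bevul.9G126600 span 408 bp, and whether they share reads was not tested.

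Of the genes paired with RefSeq, 60 long non-coding RNAs were tested, of which 9 rose (15%) and 1 fell (1.67%). Of 12146 protein-coding genes 686 rose (5.65%) and 835 fell (6.87%), and of all genes tested 5.78% rose and 6.53% fell. Whether the direction differs between long non-coding RNAs and other genes was not tested. RefSeq calls a transcript by this name when it finds no protein in it. Of the 10, 5 kept the call under every other setting. Besides Bevul.8G063800, these were Bevul.1G033300 (LOC104905597, chromosome 1), from 339.6 ± 57.6 to 592 ± 109.8 CPM, Bevul.3G204600 (LOC104889446, chromosome 3), from 98.1 ± 23.4 to 163 ± 35.6 CPM, and Bevul.9G167000 (LOC109135940, chromosome 9), from 0.53 ± 1.04 to 7.67 ± 6.97 CPM. Bevul.9G167000 had 2.64 CPM in ethanol replicate 4 and at most 0.276 CPM in the other 5, and its log2 change was 4.40 ± 1.21 with that library and 5.80 without it. With the replicate number as a block it was 3.79. The gene that fell, Bevul.9G157700 (LOC125493172, chromosome 9, 46923932 to 46938160), went from 136 ± 27.8 to 85.3 ± 8.04 CPM, a log2 change of -0.68 ± 0.17 (edgeR adjusted p = 0.00587). It overlaps another gene, and the counting may not have used strand, which no source used here states, so its counts are uncertain.

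The other 5 long non-coding RNAs rose in the fit of all libraries but lost the call in at least 1 other setting. Bevul.2G226400 (1.19 ± 0.39 on the log2 scale) lost it without ethanol replicates 2, 3 or 5 or frozen ethanol replicates 1, 2 or 4, and its edgeR and DESeq2 adjusted p values ran from 0.00586 to 0.0966. Bevul.8G063900 (1.44 ± 0.48), next to Bevul.8G063800, lost it without ethanol replicates 1, 2, 4 or 6 or frozen ethanol replicates 1 or 3, over a range of 0.0124 to 0.135. Bevul.2G238500 (0.62 ± 0.18) lost it without ethanol replicate 4, at 0.0667, or frozen ethanol replicate 5, at 0.0583. Bevul.9G204500 (0.28 ± 0.08) lost it without ethanol replicate 4 or frozen ethanol replicates 1 or 4, with the compared groups only and without the low-count filter, over a range of 0.00683 to 0.0678. Bevul.3G180200 (1.34 ± 0.46), called at 0.0494, lost it in 12 settings, over a range of 0.00897 to 0.116. Their log2 changes kept their sign throughout, at 1.01 to 1.29, 1.17 to 1.82, 0.52 to 0.73, 0.25 to 0.3 and 1.18 to 1.53 in the order given. By chromosome, the share of genes called ran from 3.66% on chromosome 1 to 7.61% on chromosome 2 for rises and from 4.65% on chromosome 6 to 9.03% on chromosome 2 for falls.

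RefSeq gives 15 of the genes a symbol, and all were tested. Of these, 2 were called, or 13.3%, near the 12.3% of all genes. The nitrate reductase gene nr1 (Bevul.3G009200, chromosome 3, 1147077 to 1150208), whose enzyme starts nitrate assimilation, ran from 138 through 182 to 200.2 CPM after ethanol and from 87.8 through 131 to 163 CPM after freezing, with overlapping ranges. Its log2 change was -0.49 ± 0.16 (edgeR adjusted p = 0.0385). BV-16/1 (Bevul.1G174400, chromosome 1, 58834395 to 58838186), a subunit of the vacuolar proton pump that acidifies the vacuole, ran from 73.6 through 84.2 to 113.1 CPM and from 98.9 through 118.9 to 131 CPM, also with overlapping ranges, a log2 change of 0.41 ± 0.13 (edgeR adjusted p = 0.0301). BV-70/5, another subunit of that pump, had a log2 change of -0.10 ± 0.09 at 371 ± 26.2 and 347 ± 32.9 CPM (adjusted p = 0.623). The call of nr1 did not hold without ethanol replicates 1, 2, 3, 5 or 6 or frozen ethanol replicates 1, 3 or 4, and without the low-count filter, over a range of 0.0135 to 0.121. That of BV-16/1 was lost when any of ethanol replicates 1 to 4 or frozen ethanol replicates 2, 4 or 5 was left out, with the compared groups only and without the low-count filter, over a range of 0.00977 to 0.0842.

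The genes of sugar and starch metabolism with a symbol did not pass. The sucrose transporter sut1 stood at 23.6 ± 10.7 and 18.6 ± 3.5 CPM, a log2 change of -0.34 ± 0.26 (edgeR adjusted p = 0.486). SBSS1, a sucrose synthase, stood at 28.1 ± 6.27 and 39.7 ± 13.9 CPM, with 0.50 ± 0.25 (adjusted p = 0.226), and agpS1, the small subunit of ADP-glucose pyrophosphorylase, at 12 ± 2.2 and 16.3 ± 4.33 CPM, with 0.44 ± 0.26 (adjusted p = 0.333). SBSPS1, a sucrose-phosphate synthase, held only 0.714 ± 0.982 and 2.12 ± 1.45 CPM. For these the ethanol and frozen ethanol libraries overlapped. Among the regulators, areb1, an ABRE-binding factor of abscisic acid signalling, had a log2 change of 0.37 ± 0.34 at 8.04 ± 2.56 and 10.3 ± 3.89 CPM. The pseudo-response regulators PRR7 and BTC1, of the circadian clock and of bolting, had 0.17 ± 0.28 and 0.24 ± 0.17. MYB12, a MYB factor, had 0.64 ± 0.77, and CENP-C, a centromere protein, -0.38 ± 0.48. BIN46, BIN44 and Glu2 had -0.35 ± 0.89, 1.68 ± 1.30 and 1.30 ± 0.81, at means under 5 CPM. Single libraries moved such values. Without ethanol replicate 4 Glu2 had 2.22 ± 0.83 (edgeR adjusted p = 0.0812), without frozen ethanol replicate 1 BIN44 had 0.99, and without ethanol replicate 1 SBSPS1 had 2.18 in place of 1.51. The SEs show that changes of the size seen in the called genes could have been missed in the low ones.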

How the data were processed

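The tools named, per the submitters' processing notes, are HISAT2, featureCounts, Trimmomatic, bcl2fastq and DESeq2, without versions. These notes give TAIR10 as the build, but chromosome names are those of EL10.2, per the file headers. The authors deposited whole read counts for 21587 genes, and all tests used these. Their table of normalized values was not used. In R 4.3.3 with edgeR 4.0.16, the 14128 genes passing filterByExpr (99.92% of reads) were scaled by TMM and fitted by a quasi-likelihood model with 5 group means over 30 libraries, no covariate. Tests were two-sided with Benjamini-Hochberg adjustment over all genes tested and a threshold of 0.05. SE is the log2 change over the square root of F, and CPM in the text carry TMM factors. DESeq2 1.42.0 was an alternative. Genes were paired with RefSeq genes of EL10.2 by position, each covering at least 0.5 of the other, with Python 3.11.15 and pandas 2.3.3. This paired 16268 genes (75.36%). The same-numbered replicates of the 2 groups did not pair (see the closing section).

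The libraries compared, the genes named and the settings were chosen with earlier results of these data known. Named genes are the 10 greatest rises and falls and the 4 greatest changes in CPM per direction under the conditions given in the text, and genes with a symbol. Long non-coding RNAs, neighbours and genes with no ethanol read were chosen after their values were known. Planned lists by protein motif and product name, and promoter motifs, could not be applied, because the reference used held no product names, proteins or promoters.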

Additional observations from a re-analysis of the deposited data

Results flagged for a closer look

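In groups of 6 libraries, a library was picked out where its gap to the nearest other was, relative to the range of its group, above Dixon's 95% critical value. Of 135 groups examined for the genes named and the totals, 9 had such a library, where chance gives about 1 in 20. In Bevul.6G187100, ethanol replicate 3 held 3.41 CPM and the next 0.642. In Bevul.7G007000, ethanol replicate 1 held 24.6 CPM and the next 12.2. In Bevul.7G178000, frozen ethanol replicate 2 held 147 CPM and the next 62.5. In Bevul.2G228400, ethanol replicate 5 held 15244 CPM and the next 12386. In BIN44 (Bevul.5G007400), frozen ethanol replicate 1 held 3.67 CPM and the next 1.3. Among the long non-coding RNAs, frozen ethanol replicate 5 held 100.9 CPM of Bevul.9G157700 and the next 87.1, and ethanol replicate 4 held 2.64 CPM of Bevul.9G167000 and the next 0.276. In Bevul.4G218700, ethanol replicate 2 held 19.8 CPM and the next 13.1. The total count of frozen ethanol replicate 5 was 17868082 and the next 11025358. These libraries belong to both groups, and no more than 2 of the 9 are the same library. Every called gene among them kept its call without the library in question.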

How the results depend on the processing

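Over 17 alternatives to the reported fit, 670 to 917 genes rose and 787 to 1109 fell, each count within 1.5 times the reported one. The fits that leave out 1 library gave 670 to 761 and 787 to 974, relative log expression scaling 746 and 969, no low-count filter 756 and 845, the compared groups only 786 and 971, and DESeq2 917 and 1109. At least 2-fold, 380 to 499 rose and 297 to 408 fell, and without ethanol replicate 4 399 and 406. Same-numbered libraries of the 2 groups did not deviate together (correlations of -0.0133 to 0.0485 over 6 pairs, with 2 of the 6 frozen libraries closest to their own number), and with the replicate number as a block 787 rose and 904 fell. The difference between the responses called 0 genes in each of its 16 alternatives, with lowest adjusted p values of 0.0684 (DESeq2) to 1. Without the low-count filter 1213 of 19407 genes had an unadjusted p under 0.05. Leaving out libraries other than ethanol replicate 4 in that test was added after the data were seen. Of 68 genes described, 54 were called, and 45 of them kept the call under every alternative that gave them a value (15 or 16 of the 17 for the 3 genes with no read after ethanol). No called gene changed sign, and BIN46, not called, went from -0.35 to 0.34 with the replicate block. Over 1148 pairs of gene and alternative, 59 lost a call. The cause of these losses was not tested. The alternatives for gene lists and promoter motifs were not run because the lists could not be applied. The depth of ethanol replicate 4, 3379082 counts, limits what can be said of genes under about 1 CPM.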
